A study of Homo sapiens with 6 samples.

Results

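The genes described here are CDKN1A (p21), GADD45A and GADD45B with 7 further genes known as targets of p53 in other cells: MDM2, SESN2, BTG2, PLK2, PLK3, TP53I3 and TNFRSF10B. They were chosen by gene symbol in the platform's probe annotation, which named 9 of the 10 genes on 15 of 47231 probes, among 20046 genes named in all; the expression of BTG2 is not analysed here. SKOV3, an established human ovarian carcinoma line known to lack functional p53, received either a non-targeting siRNA (sicontrol) or one directed at the long non-coding RNA NRCP (siNRCP) and was collected after 48 h. Each group held 3 samples, read as 500 ng of total RNA on 1 Illumina BeadArray each, and the arrays show which transcripts differ between the treatments. In such bulk samples fewer cells of a kind and less RNA per cell cannot be told apart. The set was put together with differences between these groups already known, so its values describe the genes and are not independent evidence. NRCP itself is not analysed here, and so the depth of the knockdown was not checked.

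p53 is a transcription factor that, after DNA damage and other stress, switches on genes that halt the cell cycle, repair DNA or start cell death. CDKN1A encodes the inhibitor that blocks cyclin-dependent kinases, the GADD45 proteins bind stress kinases and cell cycle regulators, and MDM2 marks p53 for destruction and so closes a feedback loop. Most of these genes also answer to other regulators, so that a cell without p53 can still transcribe them.

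Signals are given on the log2 scale after background correction and quantile normalization, and raw bead intensities are given where stated. A probe counted as above background on an array when it exceeded the 95th percentile of that array's 437 olfactory receptor probes, which lay at 6.41 to 6.49. Mean raw intensity was 554 to 563 on 4 arrays but 373 on siNRCP array 2 and 486 on siNRCP array 3, and siNRCP array 1 correlated less with siNRCP arrays 2 and 3 (r = 0.963 and 0.969 over all probes) than with the sicontrol arrays (0.983 to 0.986). Of 10 carcinoma marker genes 9 lay above background on all arrays (WT1 did not), against 0 of 3 leukocyte, 0 of 3 endothelial, 0 of 2 hepatocyte and 1 of 4 fibroblast markers (COL1A1).

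A pair of promoter stretches is printed, CDKN1A because it fell and MDM2 because its inner promoter carries a known p53 element. The MDM2 stretch lies before the inner start, and which MDM2 start the cells used was not measured. Both are RefSeq sequence of build GRCh38.p14, plus strand, the 250 bases before the start site, at chr6:36678464-36678713 for CDKN1A and chr12:68808767-68809016 for MDM2.
CDKN1A: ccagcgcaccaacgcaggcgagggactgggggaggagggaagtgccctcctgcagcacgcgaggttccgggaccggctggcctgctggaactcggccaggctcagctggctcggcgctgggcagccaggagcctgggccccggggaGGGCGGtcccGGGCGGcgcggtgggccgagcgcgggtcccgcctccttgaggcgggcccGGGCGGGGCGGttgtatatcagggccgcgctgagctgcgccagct
MDM2: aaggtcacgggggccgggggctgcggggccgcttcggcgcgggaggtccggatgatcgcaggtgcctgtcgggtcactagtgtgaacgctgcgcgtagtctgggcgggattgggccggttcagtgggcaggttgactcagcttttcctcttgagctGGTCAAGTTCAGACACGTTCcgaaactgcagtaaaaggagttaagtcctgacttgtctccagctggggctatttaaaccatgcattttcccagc
Capitals in CDKN1A mark the GC box (GGGCGG, or CCGCCC on the other strand), the motif of SP1-type factors, which occurred 4 times, the last 2 matches sharing 1 base. Of 35116 windows of the same length over all genes 42.6% held at least 1 GC box and 7.63% held 4 or more. Capitals in MDM2 mark the best match to the 20-base p53 element, 2 half-sites with no spacer, at chr12:68808923-68808942 with 2 mismatches; 0.561% of all windows held a match that close. The best match had 5 mismatches in the windows of CDKN1A, the outer MDM2 start, GADD45B, SESN2, BTG2, PLK2 and TP53I3 and 6 in that of PLK3. Over all windows the best match had a median of 5 mismatches. Only the best match of each window was kept, so any weaker p53 element in the MDM2 stretch is left in lower case. GC boxes numbered 3 in BTG2, 2 in SESN2, 2 in PLK2, 1 in PLK3, 1 in the MDM2 window shown (left in lower case there), 0 in GADD45B and 0 in TP53I3. The window of CDKN1A does not reach the distal p53 elements for which the gene is known, and GADD45A and TNFRSF10B were not examined in this way.

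CDKN1A and GADD45A were lower in siNRCP, both by more than 2.5-fold, while the other 7 genes were not called different. In the limma fit over all probes 2 of the 15 probes passed at a Benjamini-Hochberg adjusted p under 0.05, both as lower, where 1.65% of all probes passed in either direction 0.915% as lower and 0.739% as higher. Sample groups did not overlap on 3 of the 15 probes, the 2 that passed and the second GADD45A probe, all lower in siNRCP, and of all probes 8.68% were lower and 9.15% higher without overlap. Over the 9 genes, on the brightest probe of each, the median difference was -0.13 log2 and the range -1.48 to 0.43, against a median of 0.01 over all 20046 named genes. Of the 9 genes 6 had a probe above background on at least 3 arrays, and MDM2, SESN2 and PLK3 had none.

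**Figure D1:**
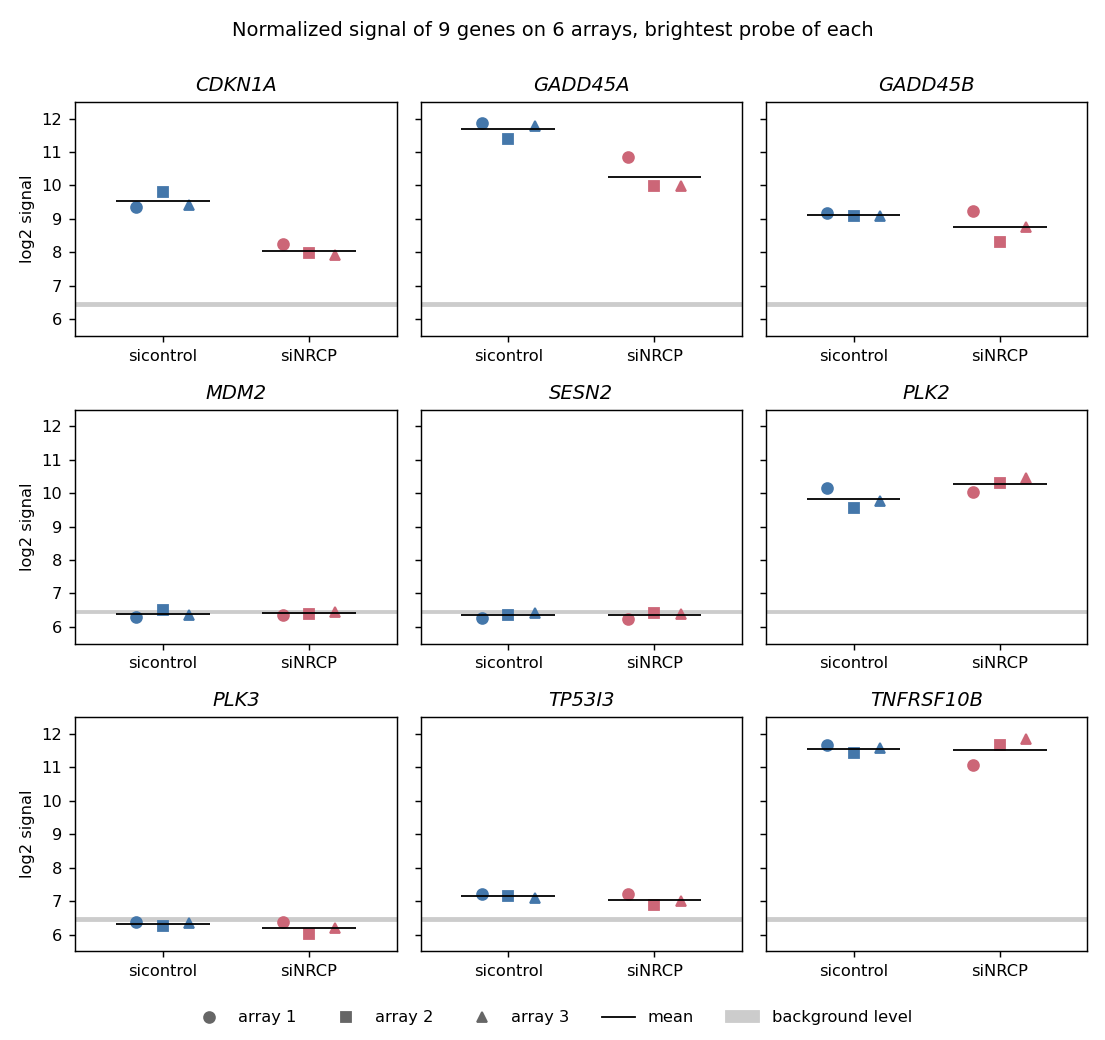
Normalized log2 signal of 9 genes on the brightest probe of each, 1 point per array, with sicontrol in blue and siNRCP in red; the black line is the group mean and the grey band spans the background levels of the 6 arrays. Only CDKN1A and GADD45A of these 9 separate the groups (means 9.53 and 8.05, and 11.68 and 10.26), and MDM2, SESN2 and PLK3 lie at the background band.

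CDKN1A halts the cycle at the entry into S phase by binding cyclin-kinase complexes. Its brighter probe (ILMN_1784602) read a raw intensity of 808.7, 980.9 and 791.5 in sicontrol (arrays 1 to 3, an order kept below) against 361.6, 225.7 and 293.2 in siNRCP. After normalization the log2 signals were 9.35, 9.81 and 9.42 in sicontrol and 8.24, 7.97 and 7.93 in siNRCP. All 3 siNRCP arrays thus lay more than 1 log2 unit below the lowest sicontrol array. The difference was -1.48 ± 0.15 log2 (SE, n = 3 per group), or 2.79-fold lower (95% confidence interval 2.19 to 3.55), with a limma adjusted p of 0.0094. Against the sicontrol mean the single siNRCP arrays stood at -1.28, -1.56 and -1.60. A second CDKN1A probe (ILMN_1787212), annotated to another transcript record, did not exceed background on any array and so carried no fold.

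GADD45A encodes a small stress-induced protein of growth arrest and DNA repair. Its brighter probe (ILMN_2052208) read raw intensities of 4285.0, 2906.6 and 3880.1 in sicontrol and 2042.5, 720.1 and 1034.8 in siNRCP. The log2 signals were 11.88, 11.38 and 11.78 in sicontrol and 10.85, 9.97 and 9.97 in siNRCP, so that the groups did not overlap and siNRCP array 1 lay nearest to sicontrol. The difference was -1.42 ± 0.25 log2 (SE, n = 3 per group), or 2.67-fold lower (95% confidence interval 1.77 to 4.02), with a limma adjusted p of 0.045. On its other probe (ILMN_1694075), which also lay above background on all arrays, the log2 signals were 10.36, 9.82 and 10.30 against 9.68, 8.55 and 8.49. That probe differed by -1.25 ± 0.32 log2 and did not pass (limma adjusted p = 0.13), its SD being 0.67 in siNRCP and 0.29 in sicontrol.

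Both calls depended on which arrays entered and on the setting, that of GADD45A on more of the settings. With all arrays kept GADD45A passed in 5 of 9 alternative settings, and among those that ended the call were no background correction (-1.38, limma adjusted p = 0.077), median scaling (-1.61, 0.10) and the series matrix values (-1.36, 0.079). CDKN1A passed in 8 of the 9, and did not with the replicate number as a block (-1.48, limma adjusted p = 0.14). Without sicontrol array 1, 2 or 3, or without siNRCP array 3, CDKN1A read -1.56, -1.34, -1.53 and -1.42 log2 and did not pass (limma adjusted p = 0.069, 0.067, 0.095 and 0.056). GADD45A passed only when siNRCP array 1 was left out (-1.71, adjusted p = 4.3e-07), and read -1.56 to -1.27 in the 5 other such fits (adjusted p = 0.15 to 0.26). Leaving out an array also lowers the number of probes that pass over the whole table, to between 11 and 188 for those 5 arrays, whereas without siNRCP array 1 it was 9932, or 21% of all probes (10.5% lower and 10.5% higher).

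**Figure D2:**
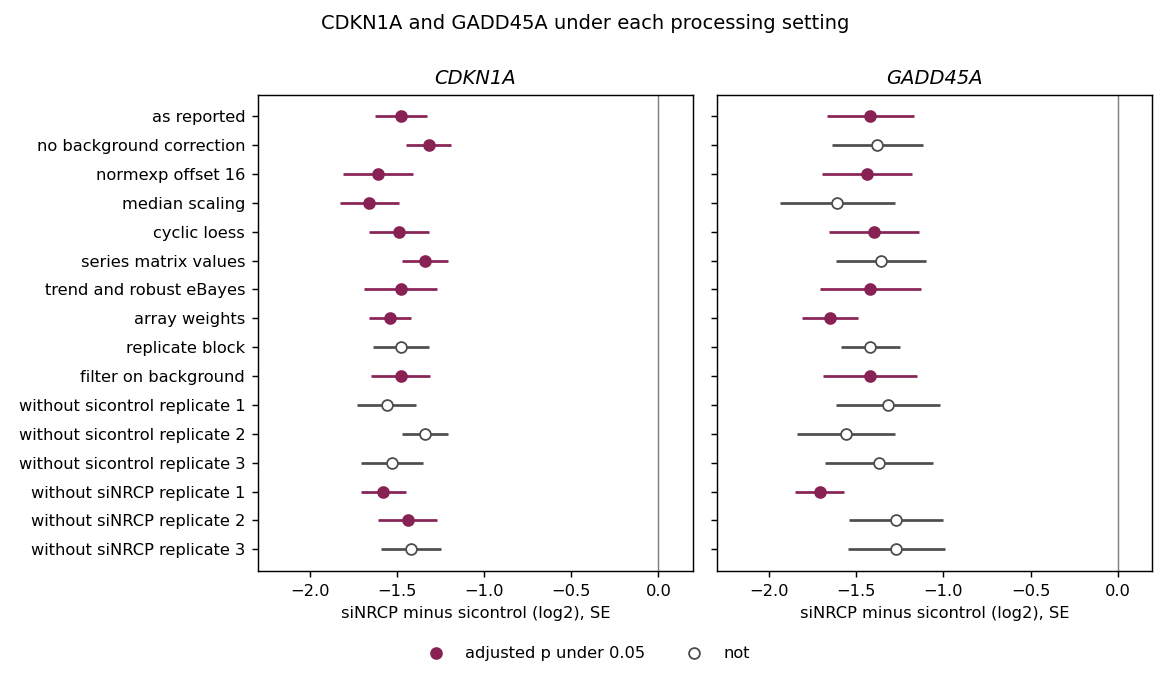
Difference between siNRCP and sicontrol (log2, horizontal axis, bars are SE) of CDKN1A (left) and GADD45A (right) on the brightest probe of each, as reported and under 15 alternative settings; filled points passed at an adjusted p under 0.05. All points lie between -1.71 and -1.27, and the settings differ in which of them pass.

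GADD45B, the stress gene next to GADD45A in the family, was not called. Its log2 signals were 9.19, 9.08 and 9.08 in sicontrol and 9.23, 8.30 and 8.76 in siNRCP. The highest value of all lay on siNRCP array 1 and the lowest on siNRCP array 2, so that the groups overlapped. The difference was -0.36 ± 0.21 log2 (SE, n = 3 per group; 95% confidence interval -0.85 to 0.14; limma adjusted p = 0.54). GADD45G, the third gene of the family, was not above background on any array.

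PLK2, a stress-responsive kinase of the polo-like family, leaned the other way from CDKN1A. Its log2 signals were 10.15, 9.57 and 9.77 in sicontrol and 10.02, 10.31 and 10.45 in siNRCP, where siNRCP array 1 lay below sicontrol array 1. The difference of 0.43 ± 0.17 log2 (SE, n = 3 per group; 95% confidence interval 0.03 to 0.84) did not pass over all probes (limma adjusted p = 0.33). PLK3, its close relative, did not exceed background on any array. Of the mitotic kinases of the family, PLK1 read 0.72 ± 0.17 log2 (adjusted p = 0.099) and PLK4, which drives centriole duplication, 0.41 ± 0.19 (0.42).

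TNFRSF10B encodes the death receptor DR5, which binds the ligand TRAIL. Its brightest probe read log2 signals of 11.67, 11.43 and 11.57 in sicontrol and 11.07, 11.66 and 11.84 in siNRCP. The siNRCP arrays thus lay on both sides of the sicontrol arrays, with array 1 low and array 3 high. The difference was -0.03 ± 0.19 log2 (SE, n = 3 per group, 95% confidence interval -0.49 to 0.42, limma adjusted p = 0.97). A second probe, above background on all arrays, differed by 0.11 ± 0.20 (limma adjusted p = 0.89). The dimmest probe differed by 0.09 ± 0.09 (0.75). Its signals of 6.32 to 6.53 lay at the background level, which it exceeded on 1 sicontrol and 2 siNRCP arrays.

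TP53I3, a quinone oxidoreductase linked to oxidative stress, read log2 signals of 7.22, 7.16 and 7.10 in sicontrol and 7.20, 6.87 and 7.0 in siNRCP on its brighter probe. The groups overlapped, and the difference was -0.13 ± 0.11 log2 (SE, n = 3 per group; 95% confidence interval -0.39 to 0.12; limma adjusted p = 0.68). Its other probe exceeded background on 1 array.

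MDM2, SESN2 and PLK3 gave no measured level. Both MDM2 probes, the SESN2 probe (a sestrin that restrains mTORC1) and the PLK3 probe exceeded background on between 0 and 2 arrays. Together with the dim probes of CDKN1A and TP53I3 these 6 probes read log2 signals between 5.71 and 6.51. A fall of MDM2, SESN2 or PLK3 from this level could therefore not be seen. In siNRCP the probes of these genes read 6.01 to 6.44, so no rise clear of background was read. No fold is given for them.

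**Figure D3:**
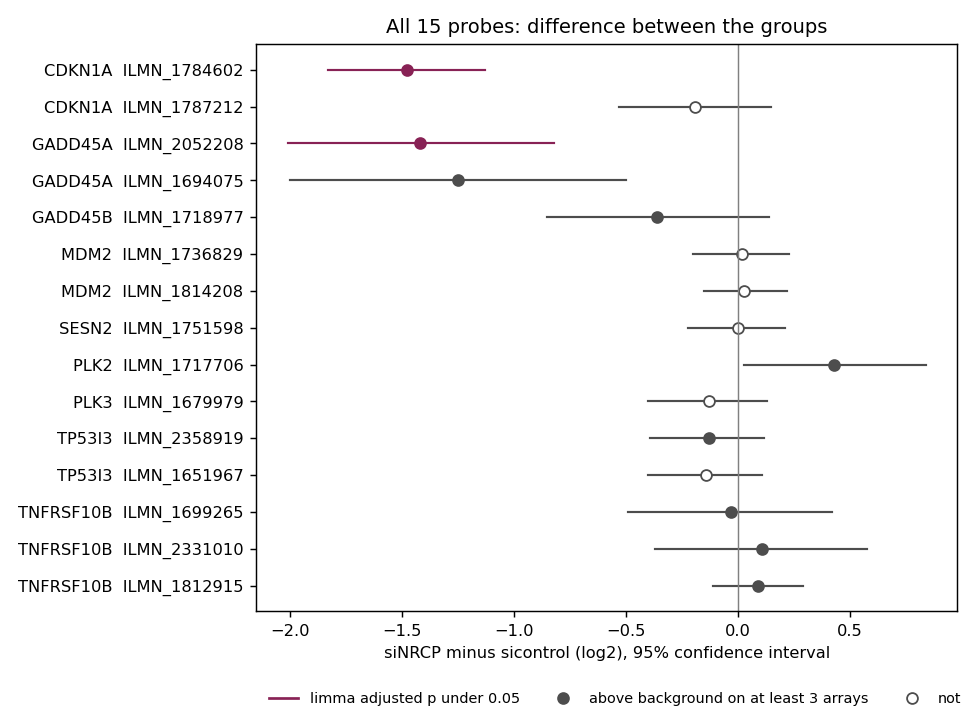
Difference between siNRCP and sicontrol (log2) on each of the 15 probes, with 95% confidence intervals; filled points lay above background on at least 3 arrays and dark red marks an adjusted p under 0.05. The brighter probes of CDKN1A (-1.48) and GADD45A (-1.42) pass, and 11 of the 15 probes have an interval that includes 0.

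The siNRCP arrays differed among themselves in several of these genes. The mean of siNRCP arrays 2 and 3 minus array 1 was -0.87 log2 for GADD45A, -0.70 for GADD45B and -0.30 for CDKN1A, but 0.36 for PLK2 and 0.68 for TNFRSF10B. The same contrast moved with the genomic length of genes: its median was -0.26 over 2707 genes of up to 10 kb and 0.23 over 8843 longer genes, all above background. GADD45A, GADD45B, PLK2, CDKN1A and TNFRSF10B span 3.13, 2.13, 6.10, 10.9 and 48.9 kb. Between siNRCP and sicontrol the median was -0.12 log2 for genes of up to 10 kb, of which 2.36% passed as lower, and 0.06 for longer genes, of which 2.70% did. The part of gene length and of array 1 in the differences of these genes was not tested. Without siNRCP array 1 the limma fit also called GADD45B lower (-0.59, adjusted p = 0.0032) and PLK2 higher (0.55, 0.010), so that 3 of the 9 genes passed as lower and 1 as higher. In that fit 14.2% of all named genes passed as lower and 17% as higher.

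Among the relatives of these genes, the paralog of CDKN1A that also inhibits cyclin-dependent kinases was lower too. CDKN1C (p57) read log2 signals of 8.10, 8.40 and 8.29 in sicontrol and 7.08, 6.83 and 6.90 in siNRCP. No siNRCP array reached the lowest sicontrol array, and the gene fell by 1.33 ± 0.12 log2 (SE over 3 arrays a group; 2.51-fold; limma adjusted p = 0.0075). CDKN1B (p27), the third inhibitor of the family, was named after its values were seen; its probes read -0.83 ± 0.18 and -0.54 ± 0.10 log2 without overlap and did not pass (adjusted p = 0.086 and 0.056). Of 20 measured partners of p21 and CDK inhibitors, 1 passed as lower (CDKN1C) and 0 as higher, with a median of -0.08 log2; by gene, 1.51% of all named genes passed as lower and 1.28% as higher. At an unadjusted limma p under 0.05 the list held 5 lower and 4 higher genes, where 9.52% of all named genes were lower and 11% higher. CDKN2A, the gene of the inhibitor p16, was not above background on any of its 3 probes. CDKN1C passed in 8 of 9 alternative settings that kept all arrays, but did not without any 1 of the sicontrol arrays (adjusted p = 0.057, 0.067 and 0.095) or without siNRCP array 3 (0.051).

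In the TRAIL receptor family the decoy receptor TNFRSF10D, which binds TRAIL without passing on a death signal, was higher in siNRCP. It read log2 signals of 6.93, 6.87 and 7.10 in sicontrol and 7.89, 8.73 and 8.28 in siNRCP, with every siNRCP array above the sicontrol arrays. It rose by 1.34 ± 0.20 log2 (SE over 3 arrays a group; 2.52-fold; limma adjusted p = 0.026), and did not pass without any 1 of the sicontrol arrays (adjusted p = 0.14, 0.17 and 0.16) or without siNRCP array 3 (0.12). It also did not pass without background correction (1.07, adjusted p = 0.057) or on the series matrix values (1.09, 0.055). The death receptor gene TNFRSF10A read -0.19 ± 0.12 log2 (0.58). BID, which links death receptors to mitochondria, fell by 0.57 ± 0.09 on its brightest probe (adjusted p = 0.031). That probe passed in 4 of 9 alternative settings with all arrays and in 1 of 6 fits that left out an array. The other BID probes read -0.4 ± 0.12 (limma adjusted p = 0.18) and 0.02 ± 0.11 (0.97) and did not pass. TNFRSF10D and BID were the 2 of 9 measured TRAIL pathway genes that passed, with a list median of -0.02 log2. By gene, 1.51% of all named genes passed as lower and 1.28% as higher.

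Of the 16 paralogs of the gene set, 11 of them above background, 2 passed as lower and 1 as higher, with a median of -0.04 log2. The shares over all named genes were 1.51% as lower and 1.28% as higher. BTG1, an antiproliferative relative of BTG2, fell by 0.98 ± 0.18 log2 (SE over 3 arrays a group; limma adjusted p = 0.049), from 11.05 ± 0.23 (SD) to 10.07 ± 0.30. It passed in 2 of 9 alternative settings with all arrays and in 1 of 6 fits that left out an array. BTG1 was also the 1 of 11 BTG and CCR4-NOT genes to pass, in a list with a median of -0.01. TOB2, of the same family and named after its values were seen, read 1.0 ± 0.22 (0.089). SESN1 read -0.07 ± 0.13 (0.89), and SESN3 was not above background; MDM4, the relative of MDM2, exceeded background on 1 array and TP73 on 0.

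**Figure D4:**
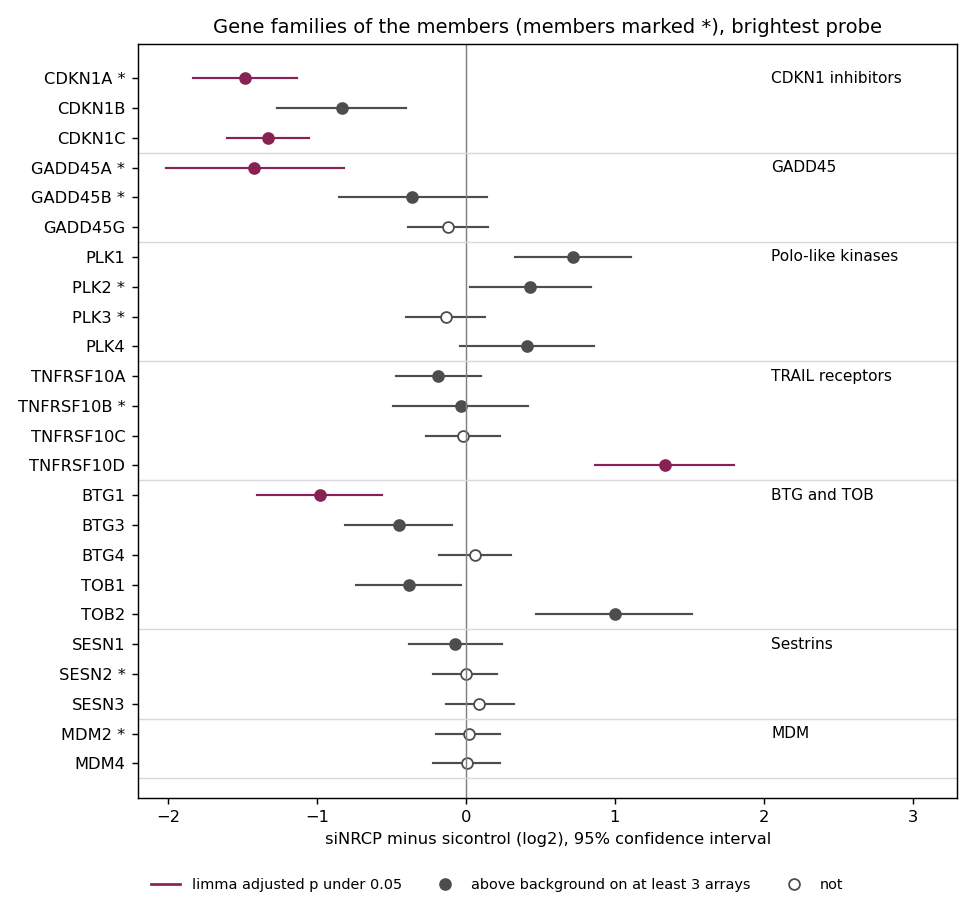
Difference between siNRCP and sicontrol (log2) with 95% confidence intervals for the gene families of the set, brightest probe of each gene; filled points lay above background on at least 3 arrays and dark red marks an adjusted p under 0.05. CDKN1A, CDKN1C, GADD45A and BTG1 pass as lower and TNFRSF10D as higher among the genes shown.

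Of 34 other measured p53 target genes none passed in either direction (0 lower, 0 higher in limma), with a median of -0.03 log2 and a range of -0.99 to 0.75. Of these, 18 had a negative and 16 a positive difference, and 30 lay above background. At an unadjusted limma p under 0.05 the list held 5 lower and 2 higher genes, where 9.52% of all named genes were lower and 11% higher at that level. With trend and robust options in limma the count was also 0. It was 13 with array weights and 15 without siNRCP array 1, in which 10 were lower and 5 higher. Over all features 17.3% of probes passed with array weights, and without siNRCP array 1 14.2% of named genes passed as lower and 17% as higher. NINJ1, a membrane protein of cell rupture, had the lowest value (-0.99 ± 0.24, limma adjusted p = 0.11) and FUCA1, a lysosomal fucosidase, the smallest adjusted p (-0.79 ± 0.18, 0.093), both named after their values were seen. These 34 genes are a chosen list and do not cover every p53 target. CDKN1C, BTG1, BID and TNFRSF10D, which passed, were counted in other lists only.

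**Figure D5:**
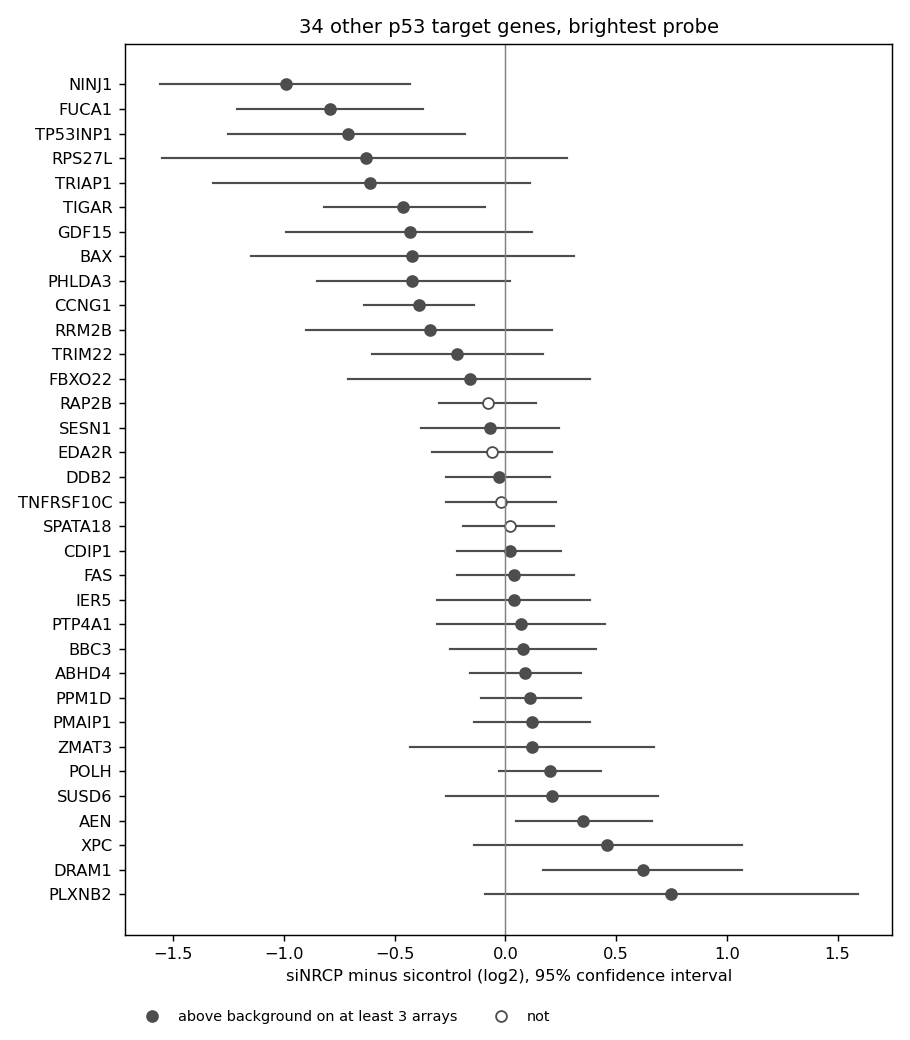
Difference between siNRCP and sicontrol (log2) with 95% confidence intervals for 34 other p53 target genes in order of size, brightest probe of each; filled points lay above background on at least 3 arrays. The values run from -0.99 (NINJ1) to 0.75 (PLXNB2, named after its value was seen) around a median of -0.03, and none has an adjusted p under 0.05.

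Lists of other regulators are set beside all named genes, of which 1.51% passed as lower and 1.28% as higher. At an unadjusted limma p under 0.05 these shares were 9.52% and 11%. None of 10 integrated stress response genes passed (0 lower, 0 higher; median -0.10 log2; 3 lower and 2 higher at an unadjusted limma p under 0.05). Among them DDIT3 (CHOP), a known activator of TNFRSF10B, read -0.40 ± 0.30 (SE, n = 3 per group; adjusted p = 0.65). None of 15 other transcription factors known at the CDKN1A or GADD45 promoters passed (0 lower, 0 higher; median 0.15; 0 lower and 3 higher unadjusted). The same held for 10 genes of the p53 family and MDM2 partners (0 passed, median 0.21; 0 lower and 1 higher unadjusted), 8 GADD45 relatives and stress kinase genes (0 passed, median 0; 0 lower and 1 higher) and 11 sestrin and GATOR genes (0 passed, median 0.09; 1 lower and 2 higher). The lists overlap in part, and together 4 of their 129 measured genes passed, CDKN1C, BTG1 and BID as lower and TNFRSF10D as higher. Among all named genes 2.79% passed in either direction.

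The genes whose pattern over the 6 arrays was most like that of CDKN1A, among 13101 named probes above background on all arrays, were CRBN (Pearson r = 0.9985), TCTN1 (0.9985), TMEM45B (0.9963), TM7SF2 (0.9960) and MMP1 (0.9945). They fell by 0.98, 0.94, 0.81, 1.22 and 2.87 log2. In all, 661 of the 13101 probes had an r of at least 0.9. Since the 6 points share 2 groups and the same arrays, the values are a description only.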

How the data were processed

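The deposited table held non-normalized bead intensity per probe and array, exported from BeadStudio (which version is not given in the sources used here), per the submitters' processing notes. The values the authors deposited in the series matrix were log2, had a median of 7.01 on each array and differed by at most 0.0835 from log2 of the quantile normalized intensities. Intensities were corrected with normexp (offset 50), quantile normalized and set on the log2 scale. Then lmFit and eBayes of limma 3.58.1, run in R 4.3.3, compared siNRCP with sicontrol over all 47231 probes, with no covariate and with Benjamini-Hochberg over all probes; the step was tested on simulated data.

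A single symbol was given for 30113 probes, several for 8 and none for 17110, and 30074 were matched by Entrez identifier. Gene lengths came from the same reference table (GRCh38.p14) and promoters from RefSeq. A gene was stood for by its brightest probe. The members and the 10 related lists (138 genes, 129 measured) were chosen with earlier results of these data known. Named were all members, 11 measured relatives whatever their values, up to 2 passing genes per list and direction, and the 5 probes most like CDKN1A; other names are marked. FDXR, TP63, CDKN2C, MAP2K7, MAPK14, CNOT6 and POU2F1 are not analysed here, and some items are not reported here. The replicates are not stated to be separate cultures, so p-values measure the spread between samples, which may be technical. Precision is limited by having 6 arrays. The alternatives tried are given in the closing section.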

Additional observations from a re-analysis of the deposited data

How the results depend on the processing

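In all alternatives run, CDKN1A and GADD45A kept a negative difference. CDKN1A (-1.48) did not pass with the replicate number as a block (-1.48, adjusted p = 0.14). Leaving out 1 array gave -1.58 to -1.34. GADD45A (-1.42) did not pass without background correction (-1.38), with median scaling (-1.61), with the series matrix values (-1.36) or with the replicate block (-1.42), and leaving out 1 array gave -1.71 to -1.27. The 15 probes held 2 calls, against 1 without background correction, with median scaling or with the series matrix values, 4 with array weights, 0 with the replicate block and 0 to 5 when 1 array was left out. The related lists held 4 calls, against 2 without background correction, with median scaling, with the series matrix values, with trend and robust options or with a filter on background, 57 with array weights, 0 with the replicate block and 0 to 63 when 1 array was left out. Over all probes 781 passed, against 288 with median scaling (231 lower, where 432 of the 781 were lower), 468 with trend and robust options, 8162 with array weights, 0 with the replicate block and 11 to 9932 when 1 array was left out. Whether the numbers pair the samples is not known. Same-numbered arrays deviated in opposite directions (r = -0.64, -0.43 and -0.20), and arrays of different number read from -0.53 to 0.63. With 3 arrays a group these values are tied to one another and cannot settle the pairing. The median over the 9 genes (-0.13) stayed between -0.24 and -0.06 under all 16 alternatives. The cause of these shifts was not tested. Probes near background limit what can be seen of MDM2, SESN2 and PLK3.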
